A study of Mus musculus with 18 samples.

Results

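Short-term haematopoietic stem cells (ST cells) of mice given tamoxifen were compared with ST cells of mice given corn oil, across all 14419 genes of the deposited table. The members were the 3 tamoxifen and the 3 oil libraries whose labels name ST cells and 2 weeks of treatment, 6 of the 18 libraries of the series. All mice were adult male C57BL/6 animals with no modified allele named, and the cells were sorted fresh from their bone marrow. The series also holds long-term stem cells (LT cells) after 2 weeks and multipotent progenitors (MPPs) after 1 week, in the same 2 treatments with 3 libraries each. The design text calls the 3 libraries of a group biological replicates. Tamoxifen dose and route, sorting gates and the number of mice behind each library are not stated in the sources at hand. If mice were pooled or shared, the p-values below measure only the spread between these libraries.

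Tamoxifen binds the estrogen receptors and, depending on the tissue and gene, blocks or mimics estrogen there. ST cells are blood stem cells that repopulate the marrow only for a limited time, and they divide more often than LT cells, which are mostly at rest. A cell that leaves rest is known to make more ribosomes, proteins, nucleotides and chaperones, the proteins that fold other proteins, before it copies its DNA and divides.

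Values are normalised CPM, reads scaled by 1 constant per library. A log2 fold change is tamoxifen against oil on log2(value + 1), with its standard error (SE). A gene is said to have risen or fallen where limma's Benjamini-Hochberg adjusted p over all genes was under 0.05. By that rule 1386 genes (9.61%) changed: 867 (6.01%) rose and 519 (3.6%) fell. The values of the oil and tamoxifen libraries did not overlap in 3892 genes (27%), and 1330 of the changed genes were among these. The rises were shallow and the falls deeper: the median log2 fold change was 0.63 among genes that rose and -0.97 among those that fell, and 118 genes rose but 242 fell by more than 2-fold. The genes that rose were also the more abundant, with a median level of 83.6 against 20.6 for those that fell. Of the most abundant 25% of genes 15.8% rose, and their median log2 fold change was 0.16, while in the least abundant 25% of genes 1.03% rose and the median was -0.22. For most gene lists below the count within the most abundant 25% of genes, called the top class, is therefore given as well, to be read against this 15.8%. Genes rising made up 62.6% of the changed genes, but 52.2% (606 against 554) after quantile normalisation and 42.2% (511 against 700) when the 15 mitochondrially encoded genes were left out before scaling.

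**Figure D1:**
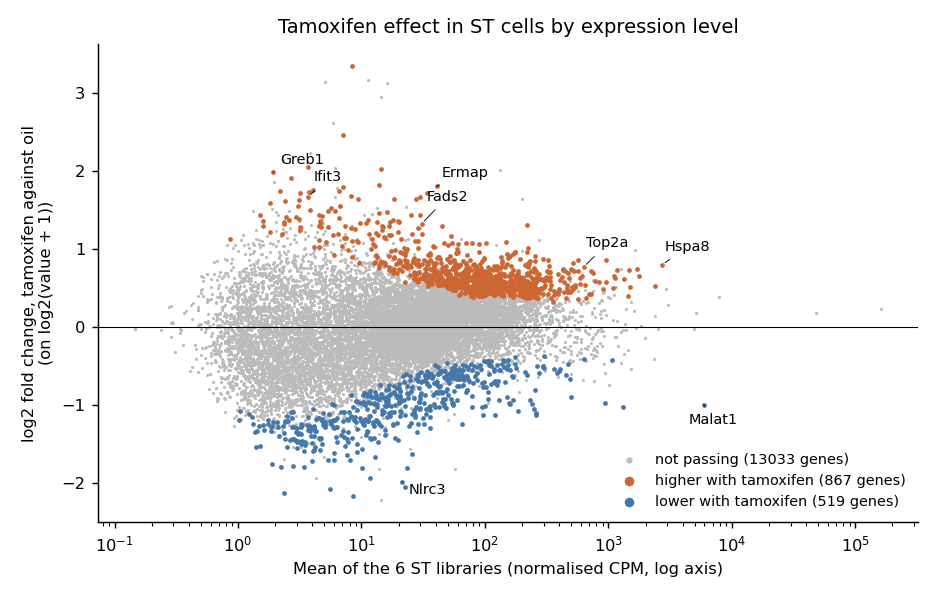
Each point is 1 of 14419 genes, placed by its mean over the 6 ST libraries (normalised CPM, log axis) and its log2 fold change between tamoxifen and oil. The 867 genes that rose (orange) lie mostly at high levels with small changes, and the 519 that fell (blue) reach lower levels and larger changes.

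The ST oil libraries held 2728800 to 3267591 reads in the listed genes and the ST tamoxifen libraries 3611749 to 3982982, so depth and treatment cannot be told apart. Mitochondrial ribosomal RNAs took 18.3% to 21.9% of the reads in oil and 19.3% to 24.4% with tamoxifen. On the first principal component (47.2% of the variance over 7209 genes) the oil libraries lay at -21.5, -15.7 and -9.90 and the tamoxifen libraries at 13.0, 15.6 and 18.5. Tamoxifen library A stood apart on the second component (18.2%), at 19.8 against -8.00 to 5.73 in the other libraries. Without it 775 genes rose and 493 fell. The counts were lower by more than 1.5 times without oil library A (446 rose and 208 fell), oil library B (569 and 335), tamoxifen library B (537 and 318) or tamoxifen library C (434 and 235). The markers of Kit+ Sca-1+ progenitors were present in all 6 libraries and summed to 1782 to 2165 in oil and 1595 to 1758 with tamoxifen, with Kit the most abundant. Of the markers of other blood cells and of stroma, those of erythroblasts summed to 93.5 to 107 in oil and 177 to 261 with tamoxifen. Those of neutrophils, B cells, T and NK cells, megakaryocytes and stroma had overlapping ranges. Those of macrophages and monocytes summed to 567 to 750 and 731 to 803. Of these 12 measured markers 1 rose, 0 fell and 11 lay above 0, with a median log2 fold change of 0.72. An unadjusted limma p under 0.05 was found for 8 of them, all above 0, against 25.1% of all genes in either direction. Of 24 granulocyte and monocyte genes 1 rose, 0 fell and 18 lay above 0 (median 0.44), and in the top class 1 of 12 rose.

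The chaperones of the endoplasmic reticulum, which fold secreted and membrane proteins, had 12 of 30 measured members higher and 0 lower, 29 of 30 above 0, and the median log2 fold change was 0.45 against 0.01 for all genes. Hspa5, the main Hsp70 chaperone of this compartment, stood at 295, 472 and 465 in oil libraries A, B and C and at 814, 649.8 and 734 in tamoxifen libraries A, B and C (log2 fold change 0.86 ± 0.18 SE, adjusted p = 0.00455). Hsp90b1, its Hsp90 counterpart, stood at 560.4, 704 and 776 in oil and 1161, 1281 and 1226 with tamoxifen (log2 fold change 0.86 ± 0.14 SE, adjusted p = 0.000412). Canx, the membrane-bound lectin chaperone calnexin, stood at 247, 345 and 379 and 477, 581 and 546 (log2 fold change 0.74 ± 0.13 SE, adjusted p = 0.000989). In each of these 3 genes oil library A was the lowest of the 6 and every tamoxifen library lay above every oil library. P4hb, a protein disulfide isomerase, rose from 141, 173 and 185 to 283, 308 and 277 (log2 fold change 0.80), and Hyou1, a large Hsp70-like chaperone, from 67.3, 90.6 and 82.2 to 126, 143 and 122 (log2 fold change 0.70). Of the 17 members in the top class 11 rose. Without oil library A the count of 12 was 8 and without tamoxifen library C it was 7.

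The promoters of 3 of these genes are shown because they carry the endoplasmic reticulum stress element, the best known shared motif of this group. The windows run from 250 bases before to 50 bases after the gene's start on the gene's own strand (RefSeq, GRCm38.p6), with every match of CCAAT, any 9 bases and then CCACG, on either strand, in capitals. A match contains a CCAAT box by its own letters. The windows are chr2:34771840-34772139 (plus strand) for Hspa5, chr10:86705395-86705694 (minus strand) for Hsp90b1 and chr11:50325624-50325923 (minus strand) for Canx.
Hspa5: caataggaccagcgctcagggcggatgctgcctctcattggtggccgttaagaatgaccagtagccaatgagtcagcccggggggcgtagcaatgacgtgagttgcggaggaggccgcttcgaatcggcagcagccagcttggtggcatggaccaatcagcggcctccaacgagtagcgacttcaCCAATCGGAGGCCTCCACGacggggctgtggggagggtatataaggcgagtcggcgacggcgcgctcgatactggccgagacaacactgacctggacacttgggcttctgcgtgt
Hsp90b1: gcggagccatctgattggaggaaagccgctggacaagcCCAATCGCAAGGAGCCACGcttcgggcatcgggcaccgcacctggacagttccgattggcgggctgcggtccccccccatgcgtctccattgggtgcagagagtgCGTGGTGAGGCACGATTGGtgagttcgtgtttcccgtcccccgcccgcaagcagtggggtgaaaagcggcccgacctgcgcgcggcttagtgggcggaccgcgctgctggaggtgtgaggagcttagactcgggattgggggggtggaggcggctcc
Canx: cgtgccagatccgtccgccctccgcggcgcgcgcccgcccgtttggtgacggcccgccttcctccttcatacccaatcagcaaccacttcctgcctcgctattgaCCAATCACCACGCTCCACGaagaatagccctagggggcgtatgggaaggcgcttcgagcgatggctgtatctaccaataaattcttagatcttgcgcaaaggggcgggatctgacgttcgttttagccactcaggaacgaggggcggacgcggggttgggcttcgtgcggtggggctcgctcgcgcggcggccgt
The match begins at base -65 from the start in Hspa5, at -145 in Canx, and at -212 and -107 in Hsp90b1, the latter on the opposite strand. Of the 30 measured members, 25 had a window, and 10 of these 25 held the motif, among them 5 of the 9 matched members that rose. It was found in 39 of all 32851 windows (0.119%) and in 18 of the 10463 measured genes with a window (0.172%). Xbp1, a transcription factor that acts through such elements, did not pass, at 95.6, 103 and 96.0 in oil and 122, 139 and 145 with tamoxifen (log2 fold change 0.45 ± 0.15 SE, adjusted p = 0.0507). Ddit3, a stress gene of the same response, did not pass either, at 22.9, 35.6 and 23.9 and 20.3, 14.7 and 17.6 (log2 fold change -0.60 ± 0.23 SE, adjusted p = 0.103).

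The cytosolic and mitochondrial chaperones rose in a larger share, with 16 of 26 members higher and 0 lower. All 26 lay above 0, with a median of 0.50 on the log2 scale. Of the 23 members in the top class 16 rose. Hspa8, the constitutive Hsp70, stood at 1585, 2129.5 and 2308 in oil and 3598, 3227 and 3504 with tamoxifen (log2 fold change 0.79 ± 0.12 SE, adjusted p = 0.000221), though it has many processed pseudogenes that could share its reads. Hspd1, the mitochondrial chaperonin, stood at 335, 394 and 400.3 and 618, 667 and 712 (log2 fold change 0.82 ± 0.12 SE, adjusted p = 0.000221). Cct6a, a subunit of the ring that folds actin and tubulin, stood at 102, 109.5 and 109 and 186, 186 and 174 (log2 fold change 0.76 ± 0.12 SE, adjusted p = 0.000272). The groups did not overlap in any of the 3. The steroid receptor co-chaperones Fkbp4 and Stip1 were also among the members that rose, with log2 fold changes of 0.56 and 0.68, but both fell below the threshold without oil library A, and Fkbp4 also without any 1 tamoxifen library. The count of 16 was 9 without oil library A or after quantile normalisation, which also took Hspa8 below the threshold, and 10 without tamoxifen library C.

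**Figure D2:**
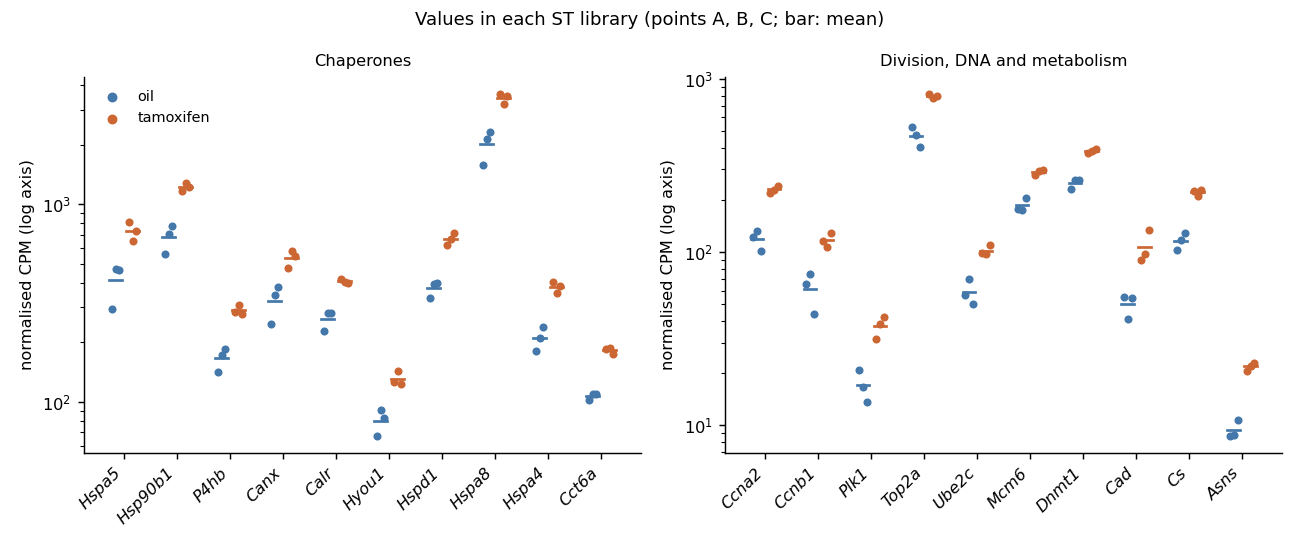
Each point is the value of 1 ST library (normalised CPM, log axis; A, B and C from left to right) in oil (blue) or tamoxifen (orange), and bars are means of 3. The 20 genes drawn were picked from those that rose, and in each the tamoxifen libraries lie above the oil libraries. The same held for 832 of all 867 genes that rose.

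Of 38 ribosome biogenesis genes 17 rose, 0 fell and 37 lay above 0 (median log2 fold change 0.50), and in the top class 14 of 22 rose. Ncl, nucleolin, stood at 1169, 1202 and 1443 in oil and 1864, 2204 and 2299 with tamoxifen (log2 fold change 0.74 ± 0.13 SE, adjusted p = 0.000851). Nolc1, a nucleolar phosphoprotein, stood at 44.6, 78.0 and 78.4 and 145, 130.1 and 136 (log2 fold change 1.07 ± 0.17 SE, adjusted p = 0.000653), where oil library A was the lowest. Ddx21, a nucleolar helicase, stood at 108, 104 and 119.8 and 183, 216 and 228 (log2 fold change 0.91 ± 0.14 SE, adjusted p = 0.000244). The count of 17 was 11 without tamoxifen library C and 14 to 15 without any other library. Of 22 cytosolic aminoacyl tRNA synthetases, which load amino acids onto their tRNAs, 12 rose and 0 fell (median 0.50), and in the top class 8 of 12 rose. Iars, for isoleucine, rose from 93.0, 97.6 and 90.7 to 156, 147 and 169.9 (log2 fold change 0.74), and Gars, for glycine, from 36.0, 45.6 and 55.3 to 96.3, 72.1 and 70.0 (log2 fold change 0.79). The count of 12 was 6 without oil library A, and 7 with the mitochondrially encoded genes left out. By symbol pattern, the 17 mitochondrial synthetases held 0 that rose and 0 that fell by limma, edgeR or DESeq2 and 1 with an unadjusted limma p under 0.05. Their median was 0.07, and -0.03 with the mitochondrially encoded genes left out.

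Of 36 translation initiation factors 14 rose and 0 fell (median log2 fold change 0.32), and in the top class 13 of 30 rose. Eif4g1, the scaffold of the cap-binding complex, rose from 150.3, 171 and 180.4 to 269.8, 263 and 268 (log2 fold change 0.67), and Eif5a from 459, 448 and 513 to 736, 709.5 and 795 (log2 fold change 0.66). Gspt1, the release factor that ends translation, rose from 179.5, 171 and 189 to 325, 312 and 337 (log2 fold change 0.85). The count of 14 was 7 without tamoxifen library C, 8 without oil library A or with neither trend nor robust variances, and 9 after quantile normalisation. The cytosolic ribosomal proteins did not share this direction. Of the 80 genes of that family, taken by symbol after the values were seen, 0 rose, 4 fell and 64 lay below 0, with a median of -0.25. The 4 were Rpl5, Rpl17, Rpl26 and Rpl36a. Rpl5 stood at 163, 158 and 122 in oil and 95.2, 107 and 112 with tamoxifen (log2 fold change -0.48 ± 0.15 SE, adjusted p = 0.0384). Each of the 4 calls was lost when any 1 library other than oil library C was left out. Ribosomal protein genes are short, and the shortest 25% of transcripts had a median log2 fold change of -0.10, with 2.63% rising. With length and GC trends removed 3 of the 80 rose and 2 fell, with a median of -0.10. They also have many pseudogenes that could share their reads.

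**Figure D3:**
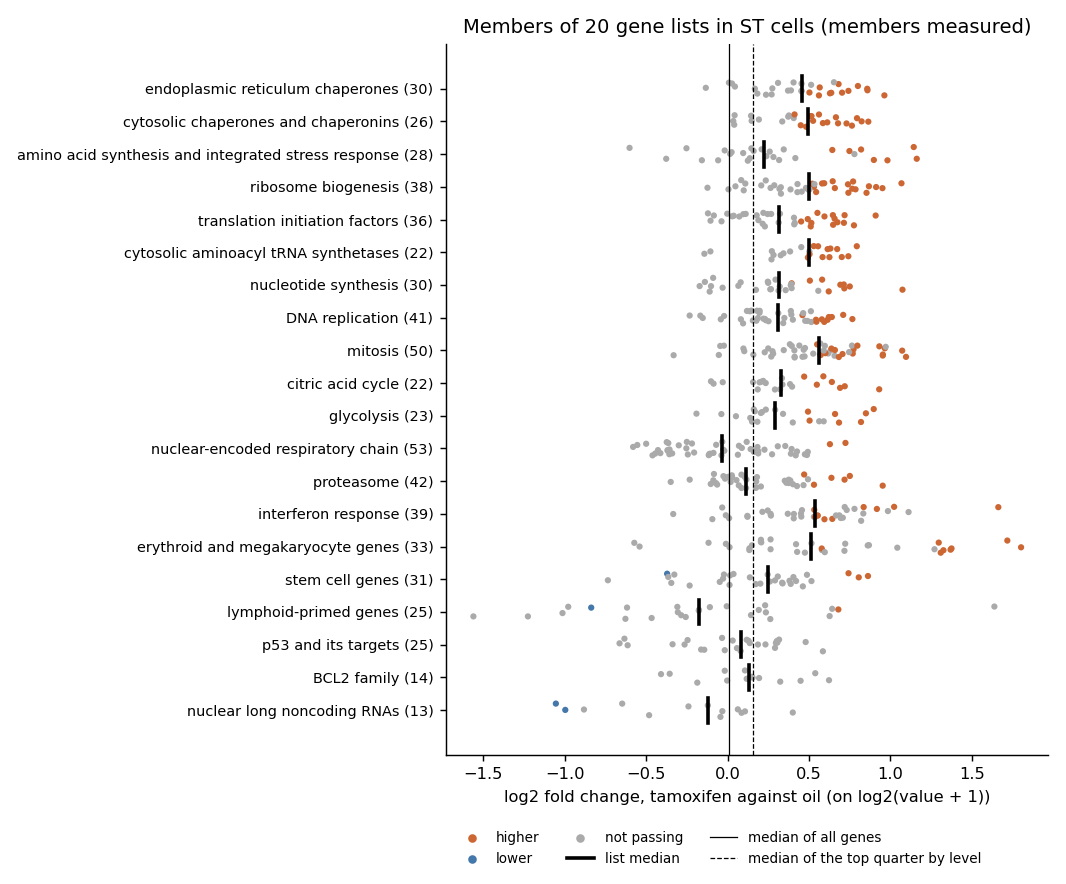
Each point is the log2 fold change of 1 measured member of 20 gene lists (orange rose, blue fell, grey did not pass), with the list median as a thick bar. Chaperones, ribosome biogenesis, tRNA synthetases and mitosis lie to the right of the median of the most abundant 25% of genes (dashed), and the respiratory chain lies around the median of all genes (thin line).

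Of 50 mitosis genes 16 rose, 0 fell and 46 lay above 0 (median log2 fold change 0.56), and in the top class 12 of 33 rose. Plk1, a kinase that drives entry into mitosis, stood at 20.9, 16.7 and 13.6 in oil and 31.5, 38.7 and 42.0 with tamoxifen (log2 fold change 1.095 ± 0.22 SE, adjusted p = 0.00270). Ccna2, the S and G2 phase cyclin, stood at 123, 132 and 102 and 219.6, 229 and 242 (log2 fold change 0.95 ± 0.16 SE, adjusted p = 0.000851), and Ccnb1, the mitotic cyclin, at 65.7, 74.7 and 43.8 and 116, 107 and 128 (log2 fold change 0.95 ± 0.19 SE, adjusted p = 0.00250). Oil library C was the lowest of the 6 in these 3 genes, and no oil library reached the lowest tamoxifen library. Top2a, a topoisomerase of condensing chromosomes, rose from 526, 477 and 404 to 816, 775 and 796 (log2 fold change 0.77), and Kif20a, a kinesin of the midzone, from 36.7, 22.4 and 30.6 to 58.3, 77.6 and 54.6 (log2 fold change 1.07). The count of 16 was 7 without oil library C, 8 without tamoxifen library C, and 8 with neither trend nor robust variances. It was 23 with only the compared groups in the fit.

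The promoters of Plk1 and Top2a are shown because many mitotic genes share 2 short elements near the start, the cell cycle genes homology region (TTTGAA) and the CCAAT box (CCAAT). Both are in capitals on either strand, in windows of the same kind, chr7:122159185-122159484 (plus strand) for Plk1 and chr11:99024140-99024439 (minus strand) for Top2a.
Plk1: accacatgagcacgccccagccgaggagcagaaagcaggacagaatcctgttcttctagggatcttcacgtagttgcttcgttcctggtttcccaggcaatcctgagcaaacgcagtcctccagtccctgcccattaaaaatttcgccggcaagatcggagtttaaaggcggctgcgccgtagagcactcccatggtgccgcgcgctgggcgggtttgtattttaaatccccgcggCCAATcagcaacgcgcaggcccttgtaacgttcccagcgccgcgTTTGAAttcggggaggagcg
Top2a: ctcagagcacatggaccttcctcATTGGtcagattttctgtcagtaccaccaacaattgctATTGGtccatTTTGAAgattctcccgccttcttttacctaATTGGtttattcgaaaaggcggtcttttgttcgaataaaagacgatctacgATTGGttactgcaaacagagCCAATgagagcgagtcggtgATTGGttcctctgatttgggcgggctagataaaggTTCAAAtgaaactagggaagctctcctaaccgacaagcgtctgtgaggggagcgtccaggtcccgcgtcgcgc
Plk1 holds TTTGAA at base 31 after its start and CCAAT at -14. Top2a holds TTTGAA at -179 and, on the opposite strand, at -23, with 6 CCAAT boxes between -227 and -58. Of the 50 mitosis genes 42 had a window. TTTGAA was found in 28 of these and in 9 of the 12 that rose, against 14.9% of all measured genes with a window and 17.1% of those that rose. CCAAT was found in 31 of the 42, against 43.0% of all measured genes with a window.

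Of 41 DNA replication genes 10 rose and 0 fell (median log2 fold change 0.31), and in the top class 9 of 24 rose. They included 5 subunits of the helicase that unwinds the origin (Mcm2, Mcm3, Mcm4, Mcm5 and Mcm6). Mcm6 stood at 177, 175 and 206 in oil and 278, 295 and 298 with tamoxifen (log2 fold change 0.64 ± 0.12 SE, adjusted p = 0.00169). Dnmt1, which copies DNA methylation onto the new strand, stood at 231, 259 and 259 and 375, 383 and 396 (log2 fold change 0.62 ± 0.11 SE, adjusted p = 0.00120). The count of 10 was 6 after quantile normalisation or without tamoxifen library C. Of 30 nucleotide synthesis genes 9 rose and 0 fell (median 0.32), all 9 among the 25 in the top class, and 5 rose after quantile normalisation. Ppat, the first enzyme of purine synthesis, rose from 70.6, 87.0 and 76.4 to 125, 116 and 138 (log2 fold change 0.69), and Mthfd1, a folate enzyme, from 41.0, 41.3 and 39.7 to 70.8, 66.7 and 69.7 (log2 fold change 0.75). The replication-dependent and linker histones with the older Hist symbols, a family taken by symbol pattern, held 0 of 55 that rose or fell by limma or edgeR and 1 that rose by DESeq2, with a median of 0.25 and 3 at an unadjusted limma p under 0.05. After quantile normalisation 2 rose, with a median of 0.33 and 7 at an unadjusted limma p under 0.05. With length and GC trends removed 2 rose, with a median of 0.41 and 16 at that unadjusted p.

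All 3 D cyclins, which start the cycle in answer to outside signals, rose. Ccnd1 stood at 21.2, 19.4 and 20.4 in oil and 37.3, 36.1 and 38.9 with tamoxifen (log2 fold change 0.85 ± 0.21 SE, adjusted p = 0.0109). Ccnd2 stood at 146, 141 and 174 and 215, 223 and 205 (log2 fold change 0.48 ± 0.13 SE, adjusted p = 0.0165), and Ccnd3 had a log2 fold change of 0.76. The groups did not overlap in Ccnd1 or Ccnd2. Ccne1, the cyclin of S phase entry, rose from 5.10, 3.48 and 3.66 to 12.6, 12.1 and 6.55 (log2 fold change 1.14). Ccng2, a cyclin tied to cell cycle arrest, fell from 55.8, 57.2 and 49.7 to 23.2, 42.4 and 31.5 (log2 fold change -0.76). These were the 5 changed genes among 32 cyclins, CDK inhibitors and quiescence genes, whose median was 0.07, and -0.01 after quantile normalisation or -0.03 with the mitochondrially encoded genes left out. In the top class 2 of 11 rose (18.2%, near the 15.8% of all genes there). The call of Ccnd2 was lost without oil library A or B or tamoxifen library B, and that of Ccnd3 without oil library A or tamoxifen library B or C. That of Ccne1 was lost without tamoxifen library A or B, and that of Ccng2 without tamoxifen library A. Ccnd2 and Ccnd3 also lost their calls with the mitochondrially encoded genes left out and with neither trend nor robust variances. Quantile normalisation took Ccnd2 below the threshold too, and a fit of only the compared groups Ccne1.

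Enzymes of carbon and amino acid metabolism rose in part. Cs, citrate synthase, the entry enzyme of the citric acid cycle, stood at 103, 117 and 128 in oil and 224, 211 and 228 with tamoxifen (log2 fold change 0.93 ± 0.12 SE, adjusted p = 8.37e-05). Of 22 genes of the cycle 7 rose and 0 fell (median log2 fold change 0.33), and in the top class 6 of 17 rose. Of 53 nuclear-encoded respiratory chain genes 2 rose, Ndufs1 and Atp5b, both among the 33 in the top class, and the list's median was -0.03. With length and GC trends removed 6 of the 53 rose and the median was 0.14, and without oil library B 1 rose and the median was 0.07. Atp5b, the catalytic subunit of ATP synthase, stood at 969, 1176 and 1186 and 1939, 1693 and 1857 (log2 fold change 0.72 ± 0.11 SE, adjusted p = 0.000221). The call of Ndufs1 was lost without oil library B. Of the 13 mitochondrially encoded genes of the chain 0 passed by limma, edgeR or DESeq2, and 0 had an unadjusted limma p under 0.05 (median 0.35). Of 23 glycolysis genes 7 rose and 0 fell (median 0.29), with 4 of 11 in the top class, and the count was 3 without oil library A and 4 without tamoxifen library C or with the mitochondrially encoded genes left out. Ldha, lactate dehydrogenase, rose from 365, 398 and 331 to 570.3, 538 and 650.3 (log2 fold change 0.68), and Slc16a1, a lactate carrier, from 30.8, 26.0 and 28.9 to 41.8, 54.7 and 68.4 (log2 fold change 0.90). Eno1 is treated with the LT comparison below.

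Of 28 genes of amino acid synthesis and the integrated stress response 7 rose and 0 fell (median log2 fold change 0.22), with 3 of 10 in the top class and with 6 or 7 in every leave-one-out fit. Asns, asparagine synthetase, stood at 8.72, 8.78 and 10.7 in oil and 20.6, 22.1 and 22.98 with tamoxifen (log2 fold change 1.14 ± 0.20 SE, adjusted p = 0.000989). Slc7a5, the carrier of large neutral amino acids, stood at 29.5, 33.6 and 33.6 and 59.1, 85.6 and 77.4 (log2 fold change 1.16 ± 0.15 SE, adjusted p = 8.79e-05). Psat1, of serine synthesis, stood at 98.6, 92.6 and 106 and 178, 169 and 154 (log2 fold change 0.75 ± 0.13 SE, adjusted p = 0.000829). The groups lay clear of each other in all 3. The promoter of Asns (chr6:7693160-7693459, minus strand, window as above) is shown with the amino acid response element TGATGNAA in capitals, at base -23.
Asns: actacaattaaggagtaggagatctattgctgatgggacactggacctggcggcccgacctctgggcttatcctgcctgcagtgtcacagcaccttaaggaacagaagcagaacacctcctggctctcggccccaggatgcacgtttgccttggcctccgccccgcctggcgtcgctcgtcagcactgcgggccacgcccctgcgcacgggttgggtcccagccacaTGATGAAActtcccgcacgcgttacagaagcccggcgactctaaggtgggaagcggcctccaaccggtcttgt
That element was found in 7 of the 25 genes of the list with a window, 2 of them among the 6 matched members that rose, and in 2.87% of all measured genes with a window.

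Enzymes of fatty acid synthesis and desaturation formed no list, and except for Fads2 those given here were picked after their values were seen. Fads2, the delta-6 desaturase of polyunsaturated fatty acids, stood at 13.99, 17.7 and 20.1 in oil and 46.9, 43.6 and 42.0 with tamoxifen (log2 fold change 1.32 ± 0.17 SE, adjusted p = 8.37e-05). Its partner Fads1 rose from 50.5, 62.8 and 68.7 to 114, 75.9 and 92.8 (log2 fold change 0.62), a call lost without oil library A or tamoxifen library A or C. Acaca, which makes malonyl-CoA, rose from 73.6, 73.1 and 69.3 to 118, 109 and 114 (log2 fold change 0.65), and Fasn, the fatty acid synthase, from 95.9, 91.6 and 91.3 to 123, 149.9 and 162 (log2 fold change 0.62). The stearoyl desaturases Scd1 and Scd2 (adjusted p = 0.484 and 0.358) and the elongases Elovl5 and Elovl6 (0.0702 and 0.260) did not pass, with log2 fold changes of 0.54, 0.26, 0.44 and 0.29. Of 24 cholesterol synthesis genes 3 rose and 0 fell (median 0.19), among them Nsdhl and the squalene epoxidase Sqle, and 2 members were in the top class. The call of Nsdhl was lost when any 1 library other than oil library C was left out. Psme3, the nuclear activator of the proteasome, had one of the smallest p-values of the comparison, at 110.4, 127 and 119.8 and 233, 232 and 229 (log2 fold change 0.95 ± 0.12 SE, adjusted p = 8.37e-05). In the proteasome list 6 of 42 members rose and 0 fell (median 0.11), of which 5 were among the 34 in the top class (14.7%, near the 15.8% of all genes there). Of 29 antioxidant enzymes 4 rose and 0 fell (median 0.34), with 3 of 13 in the top class. G6pdx, the NADPH-making dehydrogenase, rose from 52.5, 57.8 and 67.0 to 100.02, 123 and 90.3 (log2 fold change 0.81). The count of 4 was 2 without oil library A and 7 with length and GC trends removed.

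Some red cell genes rose in ST cells, and haemoglobin transcripts did not pass. Of 33 erythroid and megakaryocyte genes 8 rose and 0 fell (median log2 fold change 0.52), with 2 of 9 in the top class. Car1, a carbonic anhydrase of red cells, stood at 107, 156 and 113 in oil and 413, 242 and 291 with tamoxifen (log2 fold change 1.31 ± 0.38 SE, adjusted p = 0.0479). Ank1, which ties the red cell membrane to its skeleton, stood at 7.41, 6.46 and 3.66 and 24.6, 13.3 and 13.0 (log2 fold change 1.37 ± 0.35 SE, adjusted p = 0.0142), and Klf1, the erythroid transcription factor, at 6.09, 4.14 and 4.84 and 18.995, 9.29 and 15.3 (log2 fold change 1.33 ± 0.39 SE, adjusted p = 0.0310). Tamoxifen library A was the highest of the 6 in all 3. Without it 3 of the 33 members rose, as without oil library A or C, and 4 to 5 rose without any other library. The call of Car1 was lost without any 1 library, that of Klf1 without any 1 except tamoxifen library B, and that of Ank1 without oil library C or tamoxifen library A. Gata1 did not pass, at 5.10, 18.7 and 4.84 and 6.77, 11.9 and 11.2 (log2 fold change 0.26 ± 0.41 SE, adjusted p = 0.733). Of 9 megakaryocyte and platelet markers 1 rose and 0 fell (median 0.26). It was Ppbp, a platelet chemokine, at 0.494, 0.828 and 0.147 in oil, which are 3 reads in all, and 4.12, 4.43 and 3.21 with tamoxifen (adjusted p = 0.00633). Pf4, Itga2b, Vwf and Gp9 did not pass, with log2 fold changes from -0.12 to 0.72.

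Of 16 erythroblast markers 4 rose, Ermap, Klf1, Rhag and Spna1, and their sum was 96.4, 107 and 93.5 in oil and 261, 177 and 192 with tamoxifen. The globin Hbb-b1 stood at 8.72, 11.1 and 17.7 in oil and 12.6, 6.71 and 3.98 with tamoxifen (log2 fold change -0.69 ± 1.06 SE, adjusted p = 0.735). Alas2, the erythroid enzyme of haem synthesis, stood at 6.09, 6.79 and 3.96 and 6.51, 3.29 and 1.67 (log2 fold change -0.56 ± 0.36 SE, adjusted p = 0.349). The values of Hbb-b1, Hbb-b2, Hba-a2 and Alas2 overlapped between the groups. Hba-a1, which could share reads with the near-identical Hba-a2, did not overlap, at 3.13, 4.14 and 3.08 in oil and 3.06, 2.71 and 0.385 with tamoxifen, and did not pass (adjusted p = 0.660). The count of 4 markers was 1 or 2 without any 1 library. In sorted bulk cells, more cells of a type and more RNA per cell cannot be told apart. Of 12 haem synthesis genes 3 rose and 0 fell, among them Cpox and Alas1, the housekeeping first enzyme. The call of Alas1 was lost without oil or tamoxifen library C. Cpox stood at 24.5, 20.05 and 33.0 and 67.1, 57.9 and 65.4 (log2 fold change 1.29 ± 0.23 SE, adjusted p = 0.00171).

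**Figure D4:**
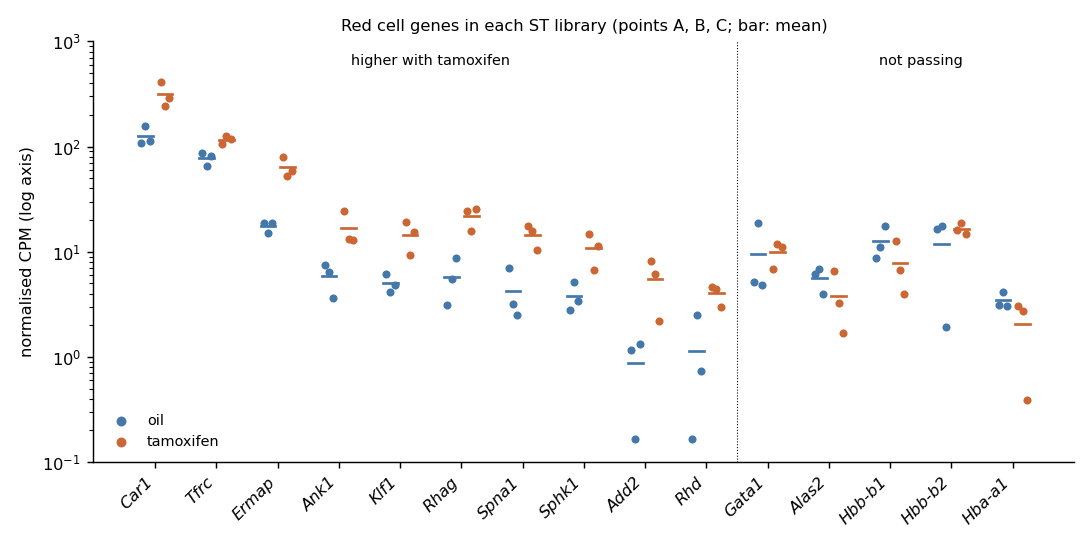
Each point is the value of 1 ST library (normalised CPM, log axis; A, B and C from left to right) in oil (blue) or tamoxifen (orange), and bars are means of 3. The 10 genes left of the dotted line rose, and Gata1, Alas2 and the globins to its right did not pass.

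Of 39 interferon response genes 9 rose and 0 fell (median log2 fold change 0.54), with 5 of 14 in the top class. Ifitm3, a membrane protein that blocks virus entry, stood at 141, 165 and 189.5 in oil and 297, 299.6 and 284 with tamoxifen (log2 fold change 0.84 ± 0.16 SE, adjusted p = 0.00264). Gbp3, a guanylate-binding protein, stood at 24.9, 25.02 and 25.9 and 58.8, 49.9 and 48.9 (log2 fold change 1.02 ± 0.22 SE, adjusted p = 0.00432), and Oas3, a sensor of double-stranded RNA, at 19.3, 25.3 and 28.9 and 46.1, 53.3 and 41.0 (log2 fold change 0.92 ± 0.21 SE, adjusted p = 0.00742). The groups did not overlap in these genes, and the call of Oas3 was lost without oil library A. The count of 9 was 3 without oil library A, 5 without oil library B and 5 without tamoxifen library A, and 6 with the mitochondrially encoded genes left out.

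Of 31 stem cell genes 3 rose and 1 fell (median log2 fold change 0.25), and 1 of the 14 in the top class rose. Mecom, a transcription factor of stem cell maintenance, stood at 79.8, 88.3 and 111 in oil and 164, 158 and 143 with tamoxifen (log2 fold change 0.74 ± 0.17 SE, adjusted p = 0.00746), a call lost without oil library A. Meis1, a homeodomain partner of the Hox proteins, stood at 353, 347 and 327 and 257, 249 and 289 (log2 fold change -0.37 ± 0.11 SE, adjusted p = 0.0318), and this call was lost without oil library A or B or tamoxifen library A or B. Tek, the angiopoietin receptor, rose from 22.2, 27.7 and 17.4 to 35.2, 37.9 and 45.6 (log2 fold change 0.81) and was lost without oil library A or C and without tamoxifen library B or C. Ctnnal1, the remaining one that rose (log2 fold change 0.86), was lost without tamoxifen library C. Of 15 sort markers 1 rose and 0 fell (median -0.15), although 2 fell by DESeq2 or after quantile normalisation. The one that rose was Ly6e, a relative of Sca-1, at 376, 429 and 517 in oil and 657, 692 and 561 with tamoxifen (log2 fold change 0.54 ± 0.12 SE, adjusted p = 0.00727), a call lost without oil library A or after quantile normalisation. Of the surface proteins used to sort such cells, Kit (log2 fold change -0.15 ± 0.11 SE, adjusted p = 0.400), Ly6a, which encodes Sca-1 (log2 fold change 0.68 ± 0.25 SE, adjusted p = 0.0914), and Cd34 (log2 fold change -0.35 ± 0.23 SE, adjusted p = 0.383) did not pass. Neither did Flt3, a receptor of MPPs and lymphoid precursors, at 135, 92.9 and 197 and 68.7, 88.4 and 52.0 (log2 fold change -0.98 ± 0.38 SE, adjusted p = 0.128), nor Cd48 (log2 fold change -0.57 ± 0.23 SE, adjusted p = 0.112), although the groups did not overlap in these 2. Slamf1 (log2 fold change 0.66 ± 0.35 SE, adjusted p = 0.240) and Procr (log2 fold change -0.70 ± 0.39 SE, adjusted p = 0.278) did not pass. Of 25 lymphoid-primed genes 1 rose and 1 fell (median log2 fold change -0.18). Satb1, a chromatin organiser of lymphoid priming, fell from 86.4, 64.5 and 122 to 48.5, 60.1 and 39.9 (log2 fold change -0.84), a call lost without oil or tamoxifen library A or C. Emb rose from 147, 112 and 157 to 179, 283 and 214 (log2 fold change 0.68). The call of Emb was lost without oil or tamoxifen library B and after quantile normalisation.

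Among the estrogen receptor genes and targets, the receptor gene Esr1 fell, at 31.4, 31.6 and 47.1 in oil and 24.6, 21.0 and 7.58 with tamoxifen (log2 fold change -1.13 ± 0.28 SE, adjusted p = 0.0149), a call lost without oil library C or tamoxifen library C. Of 14 estrogen receptor targets Greb1 and Ccnd1 rose and 0 fell (median log2 fold change 0.36). Greb1, listed at 0 reads in oil, stood at 3.85, 2.43 and 4.75 with tamoxifen. Pgr, the progesterone receptor gene, did not pass, at 0.494, 0.497 and 0.440 and 3.06, 2.43 and 1.41 (adjusted p = 0.0754). Its oil values stand for 1 read in each library. Of signalling genes, Socs2, a feedback inhibitor of cytokine receptors, rose from 8.72, 7.12 and 8.94 to 17.4, 22.7 and 22.98 (log2 fold change 1.25). Cflar, an inhibitor of caspase-8, fell from 160.5, 167 and 151 to 126, 116 and 113 (log2 fold change -0.43), a call lost without oil library A or B or tamoxifen library B or C. Of 14 BCL2 family genes and of 25 genes of p53 and its targets 0 passed by limma or edgeR, with medians of 0.13 and 0.08. At an unadjusted limma p under 0.05 there were 1 and 2, and by DESeq2 1 gene of the p53 list fell. Of 11 genes of the Myc network 0 passed by limma or edgeR and 1 by DESeq2, with 2 at an unadjusted limma p under 0.05, and Myc itself stood at 162, 184 and 228 and 335, 279 and 259 (log2 fold change 0.61 ± 0.19 SE, adjusted p = 0.0508).

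Other genes with large rises belonged to smaller lists or to none. Aldh1a1, a retinaldehyde dehydrogenase, stood at 10.0, 12.8 and 18.9 in oil and 42.9, 35.6 and 58.2 with tamoxifen (log2 fold change 1.66 ± 0.29 SE, adjusted p = 0.000829). Spire1, an actin nucleator, stood at 18.3, 13.8 and 14.8 and 47.4, 36.4 and 47.6 (log2 fold change 1.43 ± 0.21 SE, adjusted p = 0.000221). Tgm2, a transglutaminase, stood at 6.75, 19.4 and 15.4 and 41.3, 32.7 and 34.5 (log2 fold change 1.43 ± 0.29 SE, adjusted p = 0.00327). In Tgm2 oil library A was far below the other oil libraries. Vcam1, a vascular adhesion molecule, rose from 13.0, 13.1 and 19.8 to 35.2, 34.1 and 37.6 (log2 fold change 1.19), a call lost when any 1 library other than oil library C was left out. It is also the 1 of the 12 measured macrophage and monocyte markers that rose. Lgals3bp, a secreted galectin ligand, rose from 133, 139 and 169 to 377, 279 and 245 (log2 fold change 1.01). Of 15 imprinted genes 2 rose and 1 fell (median 0.12). Grb10, an adaptor that restrains growth factor receptors, rose from 31.1, 34.3 and 37.4 to 65.8, 75.6 and 78.4 (log2 fold change 1.07), and Igf2r, which clears insulin-like growth factor 2, from 6.42, 14.1 and 10.7 to 30.2, 23.3 and 19.1 (log2 fold change 1.18). Slc22a3, an organic cation carrier, fell from 141, 147 and 136 to 84.1, 87.9 and 117 (log2 fold change -0.56), a call lost without oil library A or B or tamoxifen library A or B.

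Among the genes that fell, Nlrc3, a cytosolic regulator of immune signalling, stood at 36.4, 37.3 and 28.6 in oil and 11.3, 7.86 and 5.26 with tamoxifen (log2 fold change -1.99 ± 0.28 SE, adjusted p = 0.000206). Lat2, an adaptor of immune receptors, stood at 44.9, 28.0 and 44.1 and 16.3, 10.1 and 9.63 (log2 fold change -1.62 ± 0.31 SE, adjusted p = 0.00195), and Stx3, a membrane fusion protein, at 41.0, 43.9 and 36.2 and 14.2, 20.7 and 11.9 (log2 fold change -1.35 ± 0.23 SE, adjusted p = 0.000829). The rule that named these genes admits only genes whose groups do not overlap, so their 3 tamoxifen values lay below all oil values by that choice. Clec2d, a lectin-like ligand of natural killer receptors, fell from 121, 143 and 130.01 to 76.4, 48.4 and 56.4 (log2 fold change -1.13), and Cpa3, the mast cell carboxypeptidase, from 101, 104 and 68.2 to 39.98, 21.9 and 57.9 (log2 fold change -1.24), the latter lost without oil library A or B or tamoxifen library B. Dhrs3, which reduces retinaldehyde to retinol, fell from 16.6, 20.7 and 24.8 to 7.57, 5.57 and 7.06 (log2 fold change -1.48). Zfp157, a zinc finger gene, fell from 72.2, 63.1 and 58.5 to 23.2, 37.6 and 33.8 (log2 fold change -1.03). Of 325 genes named Zfp and a number 4 rose (1.23%) and 12 fell (3.69%), with a median log2 fold change of -0.09.

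Noncoding genes were on the falling side. Of 755 genes that GENCODE M21 classes as long noncoding or unclassified RNA, 2 rose (0.265%) and 77 fell (10.2%), with a median log2 fold change of -0.50. Of 12358 protein-coding genes 856 rose (6.93%) and 319 fell (2.58%), with a median of 0.05. Most noncoding genes were rare, so the classes were also set side by side within 4 equal classes of the level. In the second lowest class 16.8% of 191 noncoding and 2.97% of 3132 coding genes fell, and in the second highest class 35.3% of 34 and 2.57% of 3463. In the most abundant class 5 of 20 noncoding genes fell and 1 rose, and their median was only -0.06. Of the 3480 coding genes there 2.99% fell and 16.3% rose, with a median of 0.16. Among the 5 that fell were Malat1, at 8603, 7986 and 7069 in oil and 4522, 3606 and 3751 with tamoxifen (log2 fold change -0.996 ± 0.13 SE, adjusted p = 8.37e-05), and Neat1, at 374, 351 and 275 and 214, 134 and 139.8 (log2 fold change -1.05 ± 0.17 SE, adjusted p = 0.000829). Of 512 pseudogenes 2 rose and 32 fell. The classes were chosen after the values were seen, the strand setting of the counting is not stated in the sources at hand, and the part that depth or RNA quality has in this difference was not tested.

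The tamoxifen effect in ST cells was set against that in LT cells, which had the same 2 weeks of treatment and their own oil libraries. Of the 867 genes that rose in ST cells 679 (78.3%) were above 0 in LT cells, against 48.1% of all genes, but their median log2 fold change there was 0.19 against 0.63 in ST cells. Of the 519 that fell 354 (68.2%) were below 0 in LT cells, against 51.9% of all genes, with a median of -0.17 against -0.97. These genes were chosen by their ST values, so the sizes in the 2 populations are not compared on equal terms. If same-letter ST and LT libraries share mice, differences between animals would enter both comparisons, and that part was not tested. The MPP libraries carry numbers in place of these letters. In MPPs 643 (74.2%) of the 867 were above 0, against 7208 of all 14419 genes. Of the 519, 402 (77.5%) were below 0 there, against 7211 of all 14419 genes. The shares of all genes in LT cells and MPPs are not matched for level, and the part that level has in these differences was not tested. In LT cells 60 genes (0.416%) passed, and 26 of them also changed in ST cells (43.3% of the LT and 1.88% of the ST genes). In MPPs after 1 week 8 genes (0.0555%) passed, and all 8 changed in ST cells (0.577% of the ST genes), with Pdgfrb, the platelet-derived growth factor receptor beta, called in all 3 populations. Mmp2, a matrix protease chosen after its values were seen, fell by 1.71 on the log2 scale in both ST and LT cells.

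A test of the difference between the ST and LT effects passed for 8 genes (0.0555%), 6 of them with a greater and 2 with a smaller effect in ST cells, and 1860 (12.9%) had an unadjusted p under 0.05. For Cs the difference of log2 fold changes was 0.86 (limma adjusted p = 0.0389), with means of 217 in LT oil and 229 in LT tamoxifen. For Eno1, the glycolytic enolase, it was 1.00 (0.0389), with 145, 169 and 181 in ST oil and 316, 282 and 295 in ST tamoxifen, although this gene has near-identical pseudogenes that could share its reads. Mtus1, a microtubule-binding protein, stood at a mean of 10.6 in ST oil and 29.1 in ST tamoxifen, and at 10.1 and 5.75 in LT cells (difference 2.02, adjusted p = 0.0389). For the other 5 genes the values are given in the closing section. The difference did not pass for Hspa8 (0.71, adjusted p = 0.0829), Psme3 (0.81, 0.0689) or Hsp90b1 (0.62, 0.168), so whether these effects differ between the populations is not shown either way. No call of this test held in every alternative. The test treats same-letter ST and LT libraries as separate mice, which the labels do not state. The count of 8 was 0 with edgeR (1778 at an unadjusted p under 0.05), with neither trend nor robust variances (1830), without ST oil library B (1760) and without ST tamoxifen library C (1624). It was 1 without ST oil library A or ST tamoxifen library B, and without ST oil library C 53 genes had a greater and 27 a smaller effect, without ST tamoxifen library A 11 and 8. LT tamoxifen library A held 29.4% of its reads in mitochondrially encoded genes, against 19.3% to 20.4% in the other LT libraries. Without it 74 genes had a greater and 48 a smaller effect, and without LT tamoxifen library B 37 and 16. Without LT oil library A or C or LT tamoxifen library C the count was 0 (1545, 1607 and 1979 at an unadjusted p under 0.05), and without LT oil library B it was 1.

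**Figure D5:**
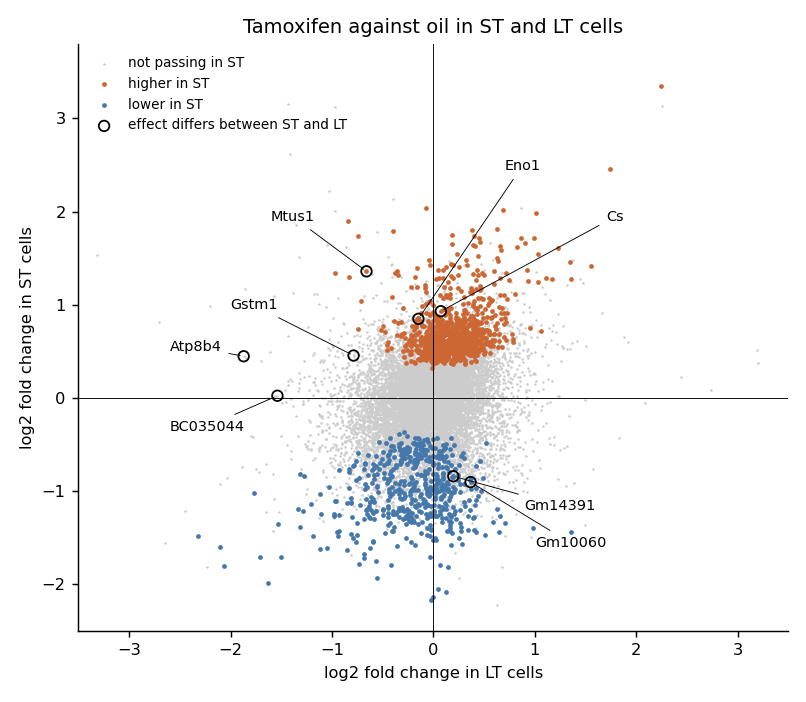
Each point is 1 gene, placed by its log2 fold change between tamoxifen and oil in LT cells (x axis) and ST cells (y axis), coloured by its call in ST cells. The 8 circled genes passed the test of the difference between the effects; Cs and Eno1 lie high in ST cells and near 0 in LT cells, and Atp8b4 and BC035044 lie below 0 in LT cells only.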

How the data were processed

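RNA-seq had been made from sorted marrow cells with the Picopure and Ovation RNA-Seq System V2 kits, per the labels' protocols. The authors deposited 1 table of normalised values, made with RSEM 1.17, cutadapt, Picard and limma on NCBIM37, per the submitters' processing notes. The annotation, scaling and strand setting are not stated in the sources at hand. In every library the deposited signal equals whole reads plus 0.5 read, times 1 constant (100% of values whole within 0.001 read), so it has the form of CPM. The recovered reads may be rounded estimates.

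The tests used limma 3.58.1 (R 4.3.3) on log2(value + 1), with all 18 libraries in 1 fit (12 residual degrees of freedom), trend and robust variances and Benjamini-Hochberg adjustment at 0.05. The log2(value + 1) scale understates changes of low genes. Data were simulated for all 18 libraries from each gene's mean over them, with 1 fixed spread for every gene. The changed genes were not drawn from the least abundant class. Of 200 genes changed 2-fold 140 were recovered, with 5 false calls among 14419 genes. Recovery at the real spread of the ST libraries was not tested. Alternatives were other pseudocounts, a filter, quantile and TMM scaling, left-out mitochondrial genes, other variance settings, library weights, a replicate block, left-out libraries, and edgeR 4.0.16 and DESeq2 1.42.0 on the recovered reads. Fits with length and GC trends removed, with each LT library left out of the difference test, and with same-letter ST and LT libraries as a block were chosen after seeing the data.

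The comparison and the 39 pathway and 8 marker lists were chosen with earlier results of these data known. Of their 1141 entries 1069 matched, and the rest were not analysed here. Genes are named by a rule: 10 receptor, target and surface genes, the 12 rising and 12 falling genes with the largest change and the 8 and 8 with the smallest p, among genes with a settled symbol, a level above the median gene and groups that do not overlap, and the up to 4 changed members of each list with the smallest p. Named after their values were seen were Hspa5, Xbp1, Ddit3, Fkbp4, Stip1, Rpl5, Rpl17, Rpl26, Rpl36a, Top2a, Mcm2, Mcm3, Mcm4, Mcm5, Ccnd3, Fads1, Acaca, Fasn, Scd1, Scd2, Elovl5, Elovl6, Klf1, Gata1, Rhag, Spna1, Alas2, Ppbp, Pf4, Itga2b, Vwf, Gp9, the globins, Myc and Mmp2, some genes drawn only in figures, and the genes of the difference test. No gene set test was run, and the part that depth has in these results was not tested. Some genes that the rule names are not reported here.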

Additional observations from a re-analysis of the deposited data

Results flagged for a closer look

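The 8 genes in which the tamoxifen effect differed between ST and LT cells (limma adjusted p under 0.05 for the difference) are given here with that difference, the ST effect minus the LT effect on the log2 scale. It was 0.86 for Cs and 1.00 for Eno1, which rose in ST cells and did not pass in LT cells, and 2.02 for Mtus1, which rose in ST cells and stood lower in LT tamoxifen without passing. For Atp8b4, a phospholipid flippase subunit, it was 2.32, with means of 132 and 179 in ST oil and tamoxifen and 23.9 and 5.74 in LT cells. For the unnamed gene BC035044 it was 1.56, with means of 76.5 and 78.2 in ST cells and 14.9 and 4.53 in LT cells. For Gstm1, a glutathione transferase with close paralogs, it was 1.24, with means of 69.6 and 93.0 in ST cells and 122 and 70.6 in LT cells. These 3 passed in LT cells and not in ST cells. The provisional genes Gm10060 (ENSMUSG00000091171) and Gm14391 had differences of -1.27 and -1.04 and fell in ST cells. What each difference rests on was not tested.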

How the results depend on the processing

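The 867 genes that rose and the 519 that fell stayed within 1.5 times of these counts in most alternatives. The exceptions were 511 rising genes with the mitochondrially encoded genes left out, 521 with neither trend nor robust variances, and the fits without oil library A or B or tamoxifen library B or C (range without 1 library 434 to 875 rising, 208 to 503 falling, lowest at 208 without oil library A and 434 without tamoxifen library C). The counts of genes with a greater effect in ST than LT cells (6) and a smaller one (2) moved in most alternatives: 2 and 5 after quantile normalisation, 1 and 0 after TMM scaling, 2 and 0 with only the compared groups, 0 and 0 with neither trend nor robust variances or with edgeR, 63 and 36 with library weights, and 89 and 68 with DESeq2. The smaller count was 5 with mitochondrially encoded genes left out and 5 with length and GC trends removed, and without 1 ST or LT library they ran from 0 to 74 and 0 to 48. At an unadjusted p under 0.05 the difference held 1778 genes with edgeR, 1830 with neither trend nor robust variances, 1790 with TMM scaling and 1565 with only the compared groups. The letters did not pair ST oil with ST tamoxifen libraries: the correlations of same-letter deviations were 0.125, -0.0624 and -0.0410, and 1 of 3 letters correlated best with its own. With the letter as a replicate block 852 genes rose and 515 fell, and the greater and smaller effects numbered 20 and 14. Each ST library was also set against the 3 LT libraries of its own treatment only. All 6 ST libraries correlated best with the one of the same letter (0.0769 to 0.160), a hint that they may share a source, which the labels do not state. With that letter as a replicate block the greater and smaller effects numbered 82 and 43. Of the 124 changed genes named by rule, 96 (without oil library A) to 124 (pseudocount 5) kept their call and 0 changed direction. Of genes that did not pass, Gata1 (log2 fold change 0.26) ran from -0.039 to 0.84 without 1 library, being below 0 without oil library A (-0.0073) or C, and Itga2b (-0.12) ran from -0.32 to 0.081, being above 0 without oil or tamoxifen library B (0.081 and 0.055). A value of 1 normalised CPM stands for 3.02 to 3.89 reads in the ST libraries, which limits the precision of rare genes.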
